A study of Mus musculus with 12 samples.

Results

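The aminoacyl-tRNA synthetase genes were described across 12 RNA-seq libraries of the mouse neuroblastoma line Neuro-2a, labelled WT throughout. A gene was taken when its deposited symbol was a capital letter followed by ars, ars1 or ars2, or was Eprs, Farsa, Farsb or Tarsl2. This gave 38 of the 15767 genes in the deposited tables, of which 19 encode cytosolic enzymes, 2 (Gars and Kars) encode both the cytosolic and the mitochondrial enzyme, and 17 encode mitochondrial enzymes. The cells had been transfected with a miR-155 mimic, a miR-155 inhibitor or the control small RNA miR-Con, with 4 libraries in each group, numbered 1 to 4 in the labels. All groups were transfected without serum and antibiotics, returned to growth medium after 4 h and kept until day 2. The labels do not say what a replicate number stands for, nor whether replicates are separate cultures, and p-values therefore rest on a spread between libraries that may be technical. The values used here measure neither miR-155 nor the uptake of the reagents.

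Each synthetase joins an amino acid to the tRNAs that carry its anticodon, and the charged tRNA is then used by the ribosome. Cytosol and mitochondria use separate tRNAs, so nearly every amino acid has a cytosolic enzyme and a mitochondrial enzyme made from a separate nuclear gene. Several cytosolic enzymes are held together in the multi-synthetase complex by the scaffold proteins Aimp1, Aimp2 and Eef1e1. When uncharged tRNA accumulates, the kinase GCN2 (gene Eif2ak4) phosphorylates eIF2α and translation of the transcription factor ATF4 rises. Reported ATF4 targets include amino acid transporters, amino acid synthesis enzymes such as Asns, and many cytosolic synthetase genes.

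Total counts were 60695388 to 74200532 per library, and all 38 genes passed the filter on low counts that left 13014 genes for testing. Groups of libraries stood apart in the series as a whole. The libraries numbered 4 differed from those numbered 1 to 3 at 5399 of 13014 genes, and control 2 was the highest of the 12 libraries for 22.6% of genes and the lowest for 22.3%. Control 2 was also the highest library for 17 of the 38 synthetase genes, or 44.7%. Of 16 markers of sympathetic neuroblastoma, 12 had a mean above 1 TPM, a count scaled by gene length and library total, and the 16 summed to 7640 to 8570 TPM per library. Nefl and Nefm, also on that list, averaged 0.0310 and 0.0298 TPM. Markers of fibroblasts summed to at most 1.73 TPM, those of glia to at most 1.51 TPM and those of immune and endothelial cells to at most 3.63 TPM.

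Cytosolic synthetase mRNAs were far more abundant than mitochondrial ones in every library. Levels between genes are given in TPM, which the authors scaled by gene length. Summed over the 19 cytosolic genes, the mimic libraries 1 to 4 held 4978, 4394, 4816 and 4236 TPM, the inhibitor libraries 4522, 4508, 4846 and 4252 TPM, and the control libraries 4755, 4682, 4742 and 4191 TPM. The 17 mitochondrial genes together held 376.8, 384.1, 385.7 and 345.8 TPM in mimic, 365.7, 377.9, 363.6 and 350.3 TPM in inhibitor, and 381.4, 374.7, 380.3 and 341.1 TPM in control libraries. The library numbered 4 had the lowest sum of its treatment group in both classes. Between the classes the ratio of sums was 11.4 to 13.3 over the 12 libraries, and the treatment groups overlapped in both sums.

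Gars, the glycyl-tRNA synthetase of both compartments, had the highest level of the 38 genes. It measured 2668, 2301, 2630 and 2442 TPM in mimic libraries 1 to 4, 2349, 2488, 2602 and 2475 TPM in inhibitor libraries, and 2579, 2469, 2531 and 2399 TPM in control libraries. Even its lowest library lay above every library of the next gene. Kars, the lysyl-tRNA synthetase of both compartments, averaged 371.9 ± 19.04 TPM (SD, n = 12). These 2 genes together held 2672 to 3039 TPM per library, between the sums of the cytosolic and the mitochondrial class, and cannot be split between compartments in gene-level values.

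Among the cytosolic genes, the seryl enzyme gene Sars led with 669.3 ± 56.7 TPM (SD, n = 12), followed by the alanyl enzyme gene Aars with 487.7 ± 51.3 TPM. Yars (tyrosyl) averaged 389.5 TPM, Rars (arginyl) 386.1, Mars1 (methionyl) 278.4, Vars (valyl) 266.1 and Eprs, which encodes a fused glutamyl and prolyl enzyme, 256.8 TPM. Dars (aspartyl) averaged 249.7 TPM, Hars (histidyl) 248.4, Tars (threonyl) 217.4, Lars (leucyl) 198.7, Wars1 (tryptophanyl) 185.3, Iars (isoleucyl) 178.9 and Nars (asparaginyl) 176.2 TPM. The subunits of phenylalanyl-tRNA synthetase were unequal, with 144.9 ± 14.0 TPM for the β subunit gene Farsb and 63.7 ± 8.91 TPM for the α subunit gene Farsa (SD, n = 12). Cars (cysteinyl) averaged 111.9 TPM, while the lowest cytosolic means were those of Tarsl2, a threonyl-like enzyme, at 36.3 TPM and Qars (glutaminyl) at 31.4 TPM.

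Sars2 had the highest mitochondrial level, 50.8 ± 4.49 TPM, and Wars2 the lowest of all 38 genes, 4.39 ± 0.507 TPM (SD, n = 12 each). In between, Aars2 averaged 39.3 TPM, Yars2 34.2, Rars2 33.5, Lars2 32.0, Iars2 28.8, Hars2 22.7 and Tars2 21.3 TPM. Vars2 averaged 17.0 TPM, Nars2 16.6, Ears2 13.04, Cars2 12.9, Mars2 8.80, Fars2 8.45 and Pars2 7.57 TPM. Ears2 charges the mitochondrial tRNAs for glutamate and glutamine alike, and an amidotransferase then turns the glutamate on the glutamine tRNA into glutamine. Along the order of the 38 means, 29 of the 37 neighbouring pairs overlapped in their ranges over the libraries. The 8 that did not overlap were Gars over Sars, Sars over Aars, Kars over Mars1, Cars over Farsa, Sars2 over Aars2, Nars2 over Ears2, Cars2 over Mars2 and Pars2 over Wars2.

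**Figure D1:**
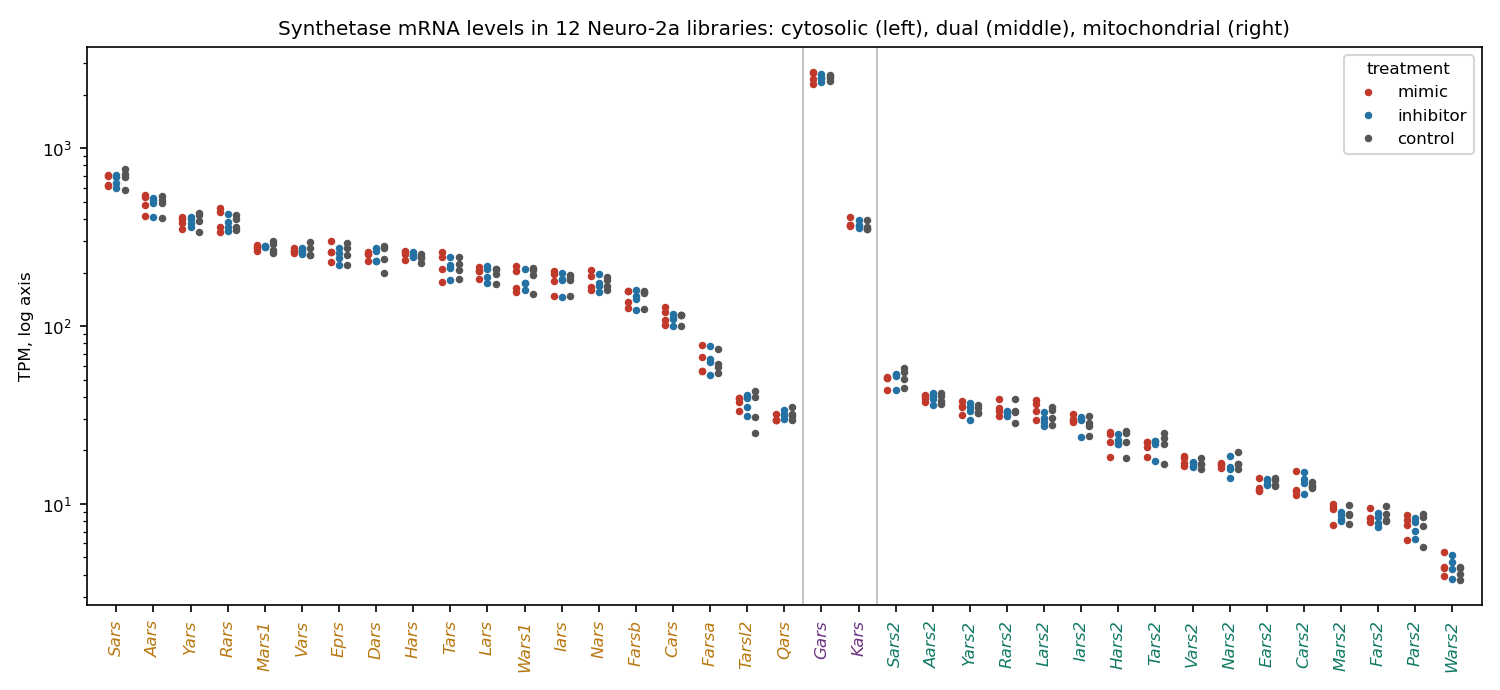
TPM of 37 synthetase genes in the 12 libraries on a log axis, ordered by mean within cytosolic, dual and mitochondrial enzymes, with 1 point per library coloured by treatment. Gars stands alone near 2495 TPM, and all mitochondrial genes lie at or below 57.95 TPM in every library.

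For 17 amino acid specificities with separate genes, the cytosolic gene was set against its mitochondrial partner, with Eprs used for Ears2 and Pars2 and Farsb for Fars2. In each of the 17 pairs the cytosolic mRNA was higher in all 12 libraries. The ratio was smallest for Iars over Iars2, 6.26 ± 0.889, and for Lars over Lars2, 6.29 ± 0.965, and highest for Wars1 over Wars2, 42.3 ± 4.99 (SD, n = 12 each). The median pair had a ratio of 12.4. The pairs share libraries and their scale, so the ratios describe levels and were not tested.

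The order within each class depends on gene length. TPM and counts in the deposited tables are tied by a fixed length per gene, which can be recovered up to a common scale. The scale was set here so that the median gene with at least 200 counts in every library matched its exon length in GENCODE M21. With that choice, the length was 0.923 times the longest coding sequence for Gars, 7.15 times for Nars and 7.97 times for Qars. The median was 2.80 over the 38 genes, and all these ratios shift together with the scale. CPM, the count scaled to library size alone, per kb of coding sequence was therefore also computed, a choice made after seeing the data. On that scale Gars remained highest with 722.9, followed by Sars with 595.0, and Nars moved to rank 4 against rank 16 in TPM. Rars moved to rank 12, against rank 5 in TPM, and Qars to rank 19, against rank 26. In all, 10 genes moved by at least 5 ranks. Farsb remained above Farsa, with 111.2 and 75.56, but by a smaller ratio than in TPM. Among mitochondrial genes Tars2 was highest on the coding scale with 40.53, while Sars2 had 23.25. The lowest of the 38 genes on that scale was Pars2 with 5.036, below Wars2 with 7.009. The cytosolic enzymes kept the higher value in each of the 17 pairs, with ratios of 3.13 (Lars over Lars2) to 47.1 (Eprs over Pars2). The extreme pairs in TPM, Iars over Iars2 and Wars1 over Wars2, had ratios of 5.13 and 36.7 on this scale.

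**Figure D2:**
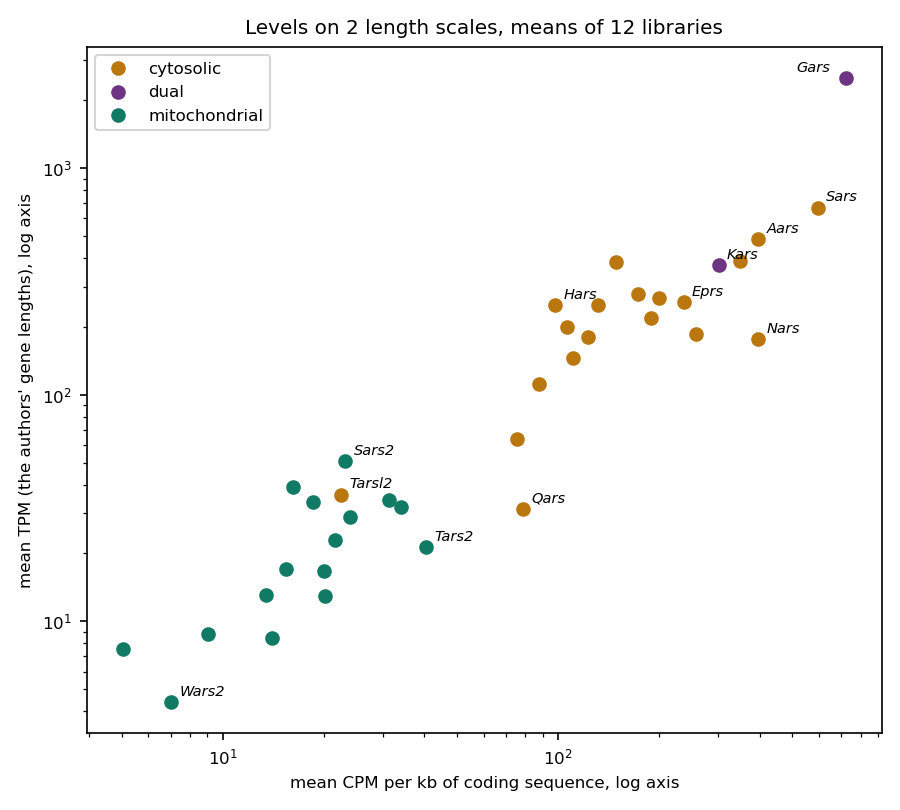
Mean TPM against mean CPM per kb of coding sequence for 37 synthetase genes, means of 12 libraries, both axes log, coloured by class. Nars and Qars lie to the right of the other genes of similar TPM, and along the horizontal axis all cytosolic genes other than Tarsl2 lie to the right of the mitochondrial ones.

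Spread over the 12 libraries also differed between genes. The coefficient of variation of TPM was smallest for Mars1 (3.90%), Hars (4.46%), Gars (4.52%) and Vars (4.57%), and greatest for Tarsl2 (14.54%), Farsa (13.98%), Wars1 (13.26%) and Pars2 (13.19%). Tarsl2 had the widest range, 25.2 TPM in control 2 and 43.2 TPM in control 4, a ratio of 1.72. The median coefficient of variation was 9.43% for cytosolic, 4.82% for dual and 8.84% for mitochondrial enzymes.

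The mimic and the inhibitor were compared with control to ask whether adding or blocking miR-155 moved these mRNAs. MicroRNAs act by pairing of their seed, bases 2 to 8, with sites in the 3′ UTR of mRNAs. The mature miR-155-5p from RefSeq (GRCm38.p6, chr16:84714143-84714165, plus strand) is shown with the seed in capitals, since it defines the sites searched for.
mmu-miR-155-5p: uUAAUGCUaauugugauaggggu
The sites searched for were AGCATTAA (8mer), AGCATTA (7mer-m8, contained in the 8mer) and GCATTAA (7mer-A1, also contained in it), on the mRNA strand of the longest 3′ UTR annotated in GENCODE M21. They were found in 4 of 38 synthetase genes (10.5%) and in 1777 of 12893 tested genes with such a UTR (13.8%). These 4 are shown with the site in capitals, as the members in which a direct effect of the mimic could be looked for. A match is a description and not a measured binding site.
Qars (7mer-m8, GRCm38 chr9:108515120-108515146, plus strand): tggtagaaggAGCATTAgtggactgct
Sars (8mer, GRCm38 chr3:108424868-108424895, minus strand): taagggttgcAGCATTAAgaaggttaac
Wars2 (7mer-m8, the earlier of 2, GRCm38 chr3:99217573-99217599, plus strand): gtcattggagAGCATTAtattgcttca
Yars (7mer-m8, GRCm38 chr4:129219465-129219491, plus strand): gtggttcattAGCATTAggttcacgct

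Neither reagent moved a synthetase gene past the threshold of edgeR's quasi-likelihood test, a Benjamini-Hochberg adjusted p under 0.05 over all genes. In mimic against control 0 of 38 synthetase genes and 0 of 13014 genes were called (0%), and an unadjusted p under 0.05 was met by 0 synthetase genes and by 0.546% of all genes. The same held in inhibitor against control, with 0 of 38 called, 0% of all genes called and 0.515% at an unadjusted p under 0.05. In mimic against inhibitor, likewise, 0 of 38 and 0% of all genes were called, and 0.592% of all genes met the unadjusted threshold. DESeq2 and limma on log2(TPM + 1) also called 0 synthetase genes in the 3 contrasts, with 0 at an unadjusted p under 0.05. The edgeR fits used group alone, so differences between replicate numbers stayed in the spread and made a treatment difference harder to detect. With replicate number as a block, genes at an unadjusted p under 0.05 rose from 71 to 191 in mimic against control. They rose from 67 to 161 in inhibitor against control and from 77 to 139 in mimic against inhibitor. The low shares are therefore no evidence that the reagents moved nothing. With the block, 0 of 13014 genes were still called in each of the 3 contrasts, so the rise is no evidence of an effect.

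The differences were small in both directions. In mimic against control, 16 of 38 log2 fold changes were above 0 and the median was -0.0124, beside -0.0068 over all genes tested, with extremes of -0.12 (Ears2) and 0.10 (Wars2). In inhibitor against control 14 of 38 were above 0, the median was -0.00844, beside -0.00993 over all genes, and the extremes were -0.10 (Nars2) and 0.12 (Wars2). Medians by class lay between -0.02 and 0.01 in these 2 contrasts, which share the control libraries. The 95% intervals of the synthetase genes reached at most 0.383 in mimic against control and 0.405 in inhibitor against control from 0 on the log2 scale, so differences up to that size lie within the intervals. The intervals come from the fit on group alone, so they also carry the spread between replicate numbers.

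Of the genes nearest to the threshold, the glutamyl enzyme gene Ears2 measured 21.49, 18.65, 19.57 and 20.49 CPM in mimic libraries 1 to 4 and 20.22, 23.64, 22.73 and 20.47 CPM in control libraries. The groups overlapped, and the log2 fold change was -0.12 (95% interval -0.30 to 0.06, edgeR adjusted p = 1). Qars measured 164.8, 181, 173.6 and 177.6 CPM in mimic and 181.2, 215.7, 182.5 and 171 CPM in control libraries. Control 2 was its highest library, the groups overlapped, and the log2 fold change was -0.11 (-0.27 to 0.06, edgeR adjusted p = 1). Against control, the inhibitor gave the smallest p for Nars2, with 24.95, 27.56, 26.99 and 32.4 CPM in inhibitor and 28.18, 29, 29.21 and 33.5 CPM in control libraries. Its log2 fold change was -0.10 (-0.30 to 0.10, edgeR adjusted p = 1), and Hars followed with 0.06 (-0.07 to 0.19, edgeR adjusted p = 1). In each of these groups of Nars2 values the library numbered 4 was the highest.

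The direct contrast of mimic with inhibitor gave the widest difference, for Lars2, the mitochondrial leucyl enzyme. It measured 81.57, 102.6, 111.3 and 98.02 CPM in mimic and 97.4, 85.8, 78.99 and 83.95 CPM in inhibitor libraries. The mimic libraries 2 to 4 lay above all inhibitor libraries and mimic 1 did not, and the log2 fold change was 0.19 (-0.04 to 0.41, edgeR adjusted p = 1). Ears2, with the next smallest p, had -0.12 (-0.30 to 0.06, edgeR adjusted p = 1).

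The 4 genes with a seed match gave no call either. Sars, with the 8mer, measured 965.1, 859.2, 995.6 and 894.9 CPM in mimic and 957.5, 1156, 1027 and 829.7 CPM in control libraries, a log2 fold change of -0.10 (-0.31 to 0.11). Yars had -0.07 (-0.27 to 0.13) and Qars the -0.11 above. Wars2, which holds 2 matches, had 0.10 (-0.19 to 0.38). With 1 library left out, Sars ranged from -0.1727 (without control 4) to -0.0138 (without control 2), and Qars from -0.1485 to -0.0319 without the same libraries. The signs of Yars and Wars2 each rested on a single library: without control 2 Yars had 0.0098, and without mimic 3 Wars2 had -0.0036.

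**Figure D3:**
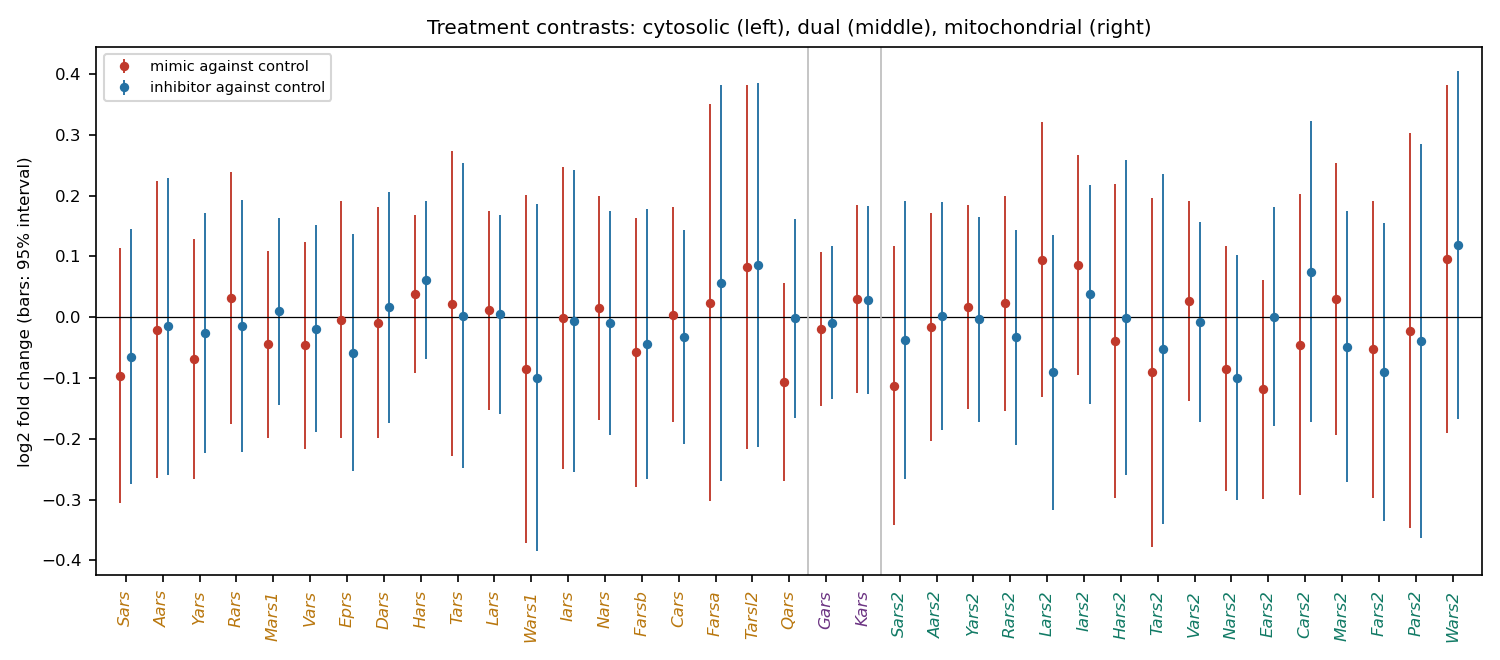
Log2 fold changes with 95% intervals for 37 synthetase genes in mimic against control (red) and inhibitor against control (blue), in the order of the plot of levels. All intervals include 0, and the points lie between -0.12 and 0.12.

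Synthetase mRNAs differed between replicate numbers. The 3 libraries numbered 4 (1 from each treatment) were set against the mean of numbers 1 to 3 in an edgeR fit with treatment and number as terms. In that contrast 18 of 38 synthetase genes were called (47.4%), 5 higher and 13 lower, beside 41.5% of all genes. By direction, 13.2% of synthetase genes were called higher, beside 20.4% of all genes, and 34.2% were called lower, beside 21.1%. An unadjusted p under 0.05 was met by 23 of 38, beside 50.1% of all genes. The share called is thus near the background, and the difference between the directions was not tested. The median log2 fold change was -0.09 over the 38 genes and -7.05e-05 over all genes tested. In bulk RNA a change in which cells make up a culture and a change of RNA within cells cannot be told apart. Markers of sympathetic neuroblastoma summed to 7640 to 7870 TPM in the number 4 libraries and 7660 to 8570 TPM in the others, with 1 of 13 tested higher and 7 lower. Fibroblast markers summed to 1.07 to 1.73 TPM in number 4 and 0.807 to 1.27 in the others, glial markers to 1.18 to 1.43 and 0.674 to 1.51, and immune and endothelial markers to 3.07 to 3.63 and 1.98 to 3.28 TPM. Of the 3 tested fibroblast markers 1 was higher (Pdgfra, 0.87, edgeR adjusted p = 0.0211) and 0 lower, of the 2 glial ones 0 were called, and of the 3 immune and endothelial ones 1 was higher (Pecam1, 0.53, edgeR adjusted p = 0.0114) and 0 lower. The part of these markers in the synthetase calls was not tested.

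Among cytosolic enzymes 3 of 19 were higher, 8 were lower and 8 were not called, with a median of -0.18, which became -0.0764 with the dual genes counted as cytosolic. Of the mitochondrial enzymes 1 of 17 was higher, 5 were lower and 11 were not called, with a median of -0.09, which was -0.155 without mimic 4. Kars was higher and Gars was not called, with 1585, 1589 and 1510 CPM for Gars in the number 4 libraries of mimic, inhibitor and control, against 1419 to 1667 CPM in the 9 others. All number 4 libraries lay above the 9 others for 4 of 38 genes, beside 17.9% of all genes, and below them for 11, beside 19% of all genes. Within each treatment, number 4 differed from the mean of its numbers 1 to 3 in the same direction in all 3 treatments for 16 of 19 cytosolic and 11 of 17 mitochondrial genes. The share over all genes was not computed, so these counts cannot be read as particular to the synthetases.

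Iars, a member of the multi-synthetase complex, fell most among the cytosolic enzymes. It measured 394.9, 381.6 and 382.3 CPM in the number 4 libraries of mimic, inhibitor and control, against 452.9 to 513.8 CPM (median 493.8) in the 9 others. The groups did not overlap, and the log2 fold change was -0.35 ± 0.05 (SE, edgeR adjusted p = 0.000154). Tars gave 343, 347.9 and 344.4 CPM in the number 4 libraries, against 386.6 to 466 CPM (median 424.1), with -0.32 ± 0.05 (SE, edgeR adjusted p = 0.000638). Aars, at 1002, 975.3 and 944.1 CPM against 1101 to 1346 CPM (median 1223), also lay wholly below, with -0.31 ± 0.07 (SE, edgeR adjusted p = 0.00317). Wars1, known in other cells as an interferon-induced gene, gave 318.9, 322.2 and 303 CPM against 318.4 to 450.1 CPM (median 408.9). Its number 4 values met the lowest of the others, mimic 2, and the log2 fold change was -0.31 ± 0.09 (SE, edgeR adjusted p = 0.0158). The other cytosolic genes called lower were Farsb, Rars (-0.20), Cars (-0.18) and Nars (-0.18).

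The subunits of phenylalanyl-tRNA synthetase, which work as a tetramer of both, moved in opposite directions. Farsa gave 145.3, 141.8 and 133 CPM in the number 4 libraries of mimic, inhibitor and control, against 95.64 to 122.5 CPM (median 106.8), with a log2 fold change of 0.39 ± 0.07 (SE, edgeR adjusted p = 0.00174). Farsb gave 175.4, 169.2 and 167.1 CPM, against 180 to 219.6 CPM (median 206.3), with -0.26 ± 0.06 (SE, edgeR adjusted p = 0.00312). Both genes separated number 4 from the 9 other libraries. Farsa was the greatest increase among the 38 genes, and both calls were kept under each of 20 other settings.

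Tarsl2 and Dars also rose. Tarsl2 gave 59.56, 61.2 and 63.41 CPM in number 4, against 39.45 to 57.58 CPM (median 51.75), with 0.28 ± 0.10 (SE, edgeR adjusted p = 0.0485). Dars, another complex member, gave 205.7, 219.6 and 221.4 CPM, against 167.8 to 210.4 CPM (median 190.2), with 0.17 ± 0.06 (SE, edgeR adjusted p = 0.0486). Tarsl2 separated number 4 from the other libraries and Dars did not, and each of these 2 calls was kept under 8 of 20 other settings. Tarsl2 rose while Tars, which charges the same tRNAs, fell. Kars gave 640.2, 607.6 and 596.7 CPM, against 519.8 to 579.5 CPM (median 545.5), without overlap and with 0.17 ± 0.05 (SE, edgeR adjusted p = 0.0174).

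In the mitochondrial class, Tars2 fell most, with 77.58, 72.51 and 68.53 CPM in the number 4 libraries of mimic, inhibitor and control, against 83.34 to 110.1 CPM (median 92.13). The groups did not overlap, and the log2 fold change was -0.35 ± 0.08 (SE, edgeR adjusted p = 0.00624). Sars2 was also wholly lower, with 31.94, 31.57 and 31.8 CPM against 34.48 to 43.67 CPM (median 37.21) and -0.24 ± 0.07 (SE, edgeR adjusted p = 0.0187). Pars2, the mitochondrial prolyl enzyme, gave 6.581, 7.286 and 5.833 CPM against 6.673 to 9.442 CPM (median 8.078), with overlap and -0.30 ± 0.11 (SE, edgeR adjusted p = 0.0417). This call was kept under 12 of 20 other settings, and without control 4 the difference was -0.19 (edgeR adjusted p = 0.275). Hars2 gave 27.13, 31.81 and 25.74 CPM against 30.36 to 35.97 CPM (median 35.28), with overlap through the inhibitor library and -0.27 ± 0.08 (SE, edgeR adjusted p = 0.0163). Mars2 was the remaining mitochondrial gene called lower (-0.21). Nars2 was the 1 mitochondrial gene that rose, with 29.96, 32.4 and 33.5 CPM against 24.95 to 29.21 CPM (median 27.69) and 0.21 ± 0.06 (SE, edgeR adjusted p = 0.0149).

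**Figure D4:**
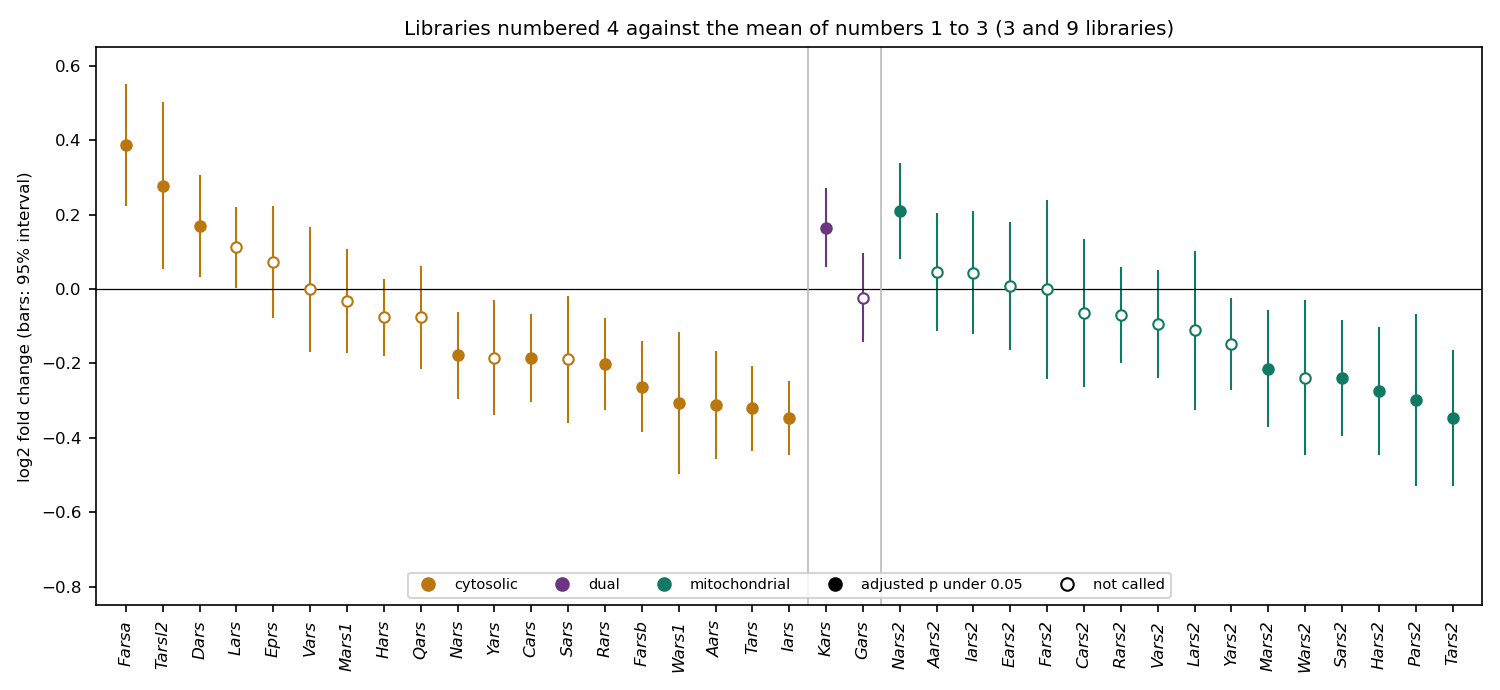
Log2 fold change of number 4 against the mean of numbers 1 to 3 for 37 synthetase genes with 95% intervals, ordered within cytosolic, dual and mitochondrial enzymes, filled where called. Filled points above 0 are Farsa, Tarsl2, Dars, Kars and Nars2, and the other 13 filled points lie below 0.

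**Figure D5:**
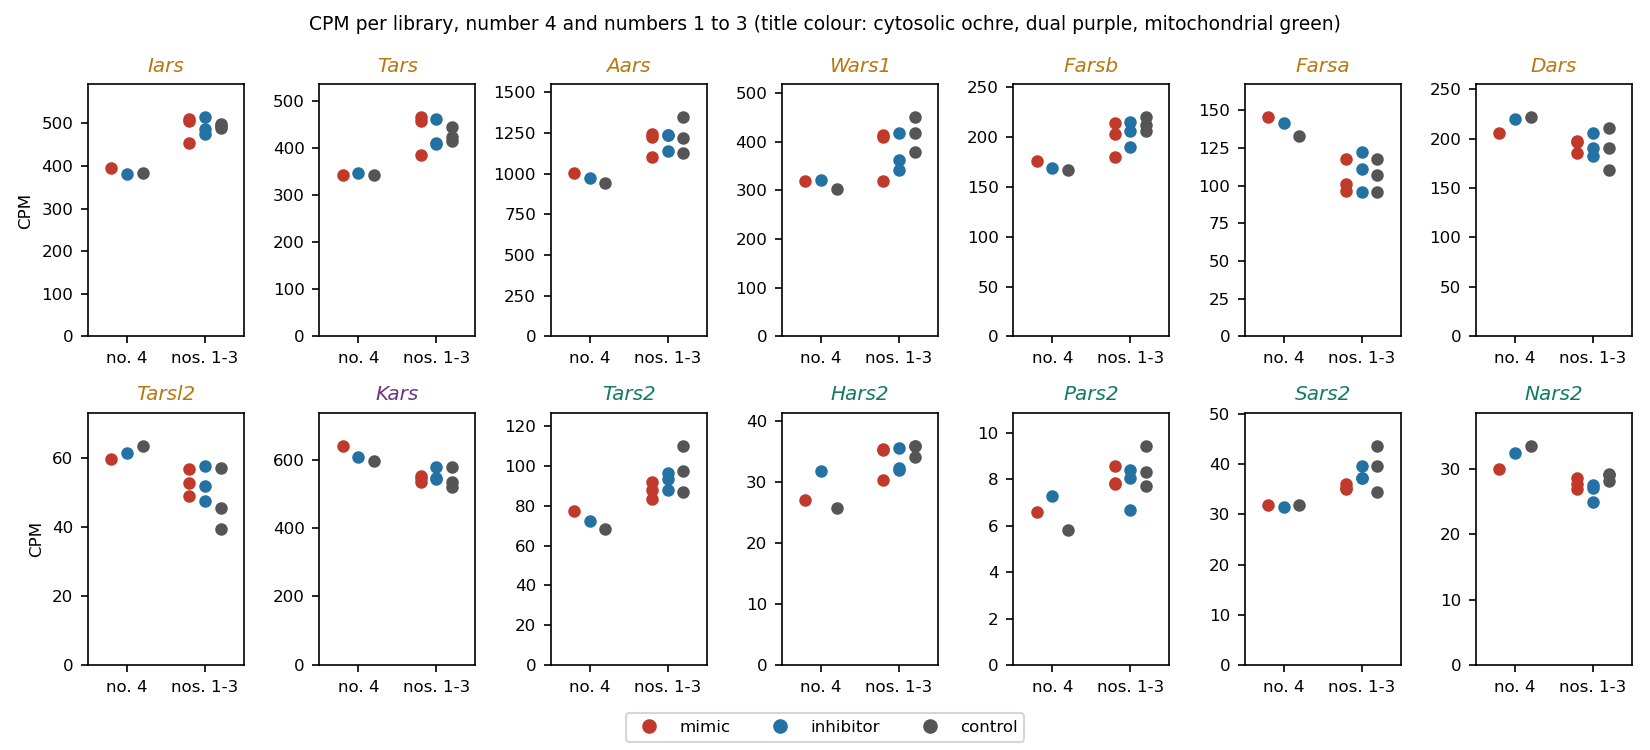
CPM per library for 14 called genes, with the 3 number 4 libraries on the left of each panel and the 9 others on the right, coloured by treatment, on axes that start at 0. Iars, Tars and Aars lie wholly below and Farsa wholly above the other libraries in all 3 treatments.

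Of the 17 pairs of partner enzymes, 11 had log2 fold changes of the same sign and 6 of opposite sign. With 14 of 19 cytosolic and 13 of 17 mitochondrial log2 fold changes below 0, pairs can share a sign without partners moving together. Both genes were called in 2 pairs. Tars and Tars2 both fell, while Nars fell (-0.18) and Nars2 rose (0.21). In 4 pairs neither gene was called, and in the remaining pairs 1 of both was. By position in the cell, a grouping added after seeing the data, the 8 enzymes of the multi-synthetase complex held 2 higher (Kars and Dars), 2 lower (Iars and Rars) and 4 not called (Eprs, Lars, Mars1 and Qars). The 13 other cytosolic and dual enzymes held 2 higher, 6 lower and 5 not called. By catalytic fold, also added, class I enzymes had 0 higher and 4 lower of 9, and class II enzymes 4 higher and 4 lower of 11, with Eprs spanning both. Over all genes 20.4% were called higher and 21.1% lower, and groups of 8 to 13 genes are too small to be set apart from these shares. These pairs and groupings were described and not tested.

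Numbers other than 4 gave no call by edgeR with all libraries. Number 3 against the mean of numbers 1 and 2 called 0 of 38 synthetase genes and 0% of all genes by edgeR, with 1 synthetase gene (Lars, log2 fold change 0.12) and 2.17% of all genes at an unadjusted p under 0.05. Without control 2, that contrast called 569 of 13124 genes and 2 of 38 synthetase genes. These were Farsb (0.13, edgeR adjusted p = 0.0457) and Wars1 (0.22, edgeR adjusted p = 0.0223). Number 2 against number 1 called 0 of 38 and 0% of all genes, with 2 synthetase genes (Eprs at -0.20 and Rars2 at -0.18) and 2.17% of all genes at an unadjusted p under 0.05. Whether the number 4 difference varied with treatment was tested as an interaction, which called 0 of 38 synthetase genes and 7 of 13014 genes (0.0538%) by edgeR, with 0 synthetase genes and 1.61% of all genes at an unadjusted p under 0.05. The smallest unadjusted interaction p among the 38 was 0.101, for Hars2.

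The number 4 calls rested most on the control 4 library. Without it, edgeR called 5 synthetase genes (1 higher and 4 lower) and 3690 genes in all. Without mimic 4 the count was 10 (2 higher, 8 lower), beside 4337 genes in all. Without inhibitor 4 it was 10 (1 higher, 9 lower), beside 3757 genes in all. With every library 5399 genes were called, so the count over all genes fell in these fits as well. Iars, Tars, Aars, Farsa and Farsb were called under all 20 other settings. The other 10 calls, leaving out Pars2, Tarsl2 and Dars, were kept under 15 to 19 of the 20. Without control 4 Hars2 had -0.19 (edgeR adjusted p = 0.137), Wars1 -0.24 (0.118) and Tars2 -0.27 (0.0566). In every setting the 18 genes kept the sign of their change.

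Counting can blur genes that overlap, since how strand was used in counting is not given in the sources used here. In GENCODE M21, Aars overlaps Exosc6 and Tarsl2 overlaps Tm2d3 on the same strand. Hars and Hars2 overlap each other on opposite strands, as do Mars1 and Ddit3, Wars1 and Wdr25, and Farsb and Sgpp2. Cars2, Ears2, Fars2, Iars2 and Yars each overlap a gene outside the family on the opposite strand, so values of all these genes are uncertain to that extent. Over 10667 genes the number 4 difference also moved with base composition, with a Spearman correlation of -0.205 with GC content and 0.129 with length, a description over genes that share the libraries. The median GC content was 46.8% in the 5 synthetase genes called higher, 48.3% in the 13 called lower, 51.3% in all 38 and 51.1% in all genes tested. Over the 38 genes the Spearman correlation of GC content with the difference was -0.0272. Its part in the calls was not tested.

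The promoters were searched for TGATGNAA on both strands, the core of the element that ATF4 binds with C/EBP proteins, in the 250 bases before the start. It was found in 3 of the 28 synthetase promoters listed in RefSeq (10.7%) and in 1056 of 27025 promoters listed for all genes (3.91%). Of these stretches 2 are shown with the match in capitals, in both as the reverse complement, because Tars fell in number 4 and Gars, the most abundant member, was not called.
Gars (GRCm38.p6 chr6:55037960-55037989, plus strand): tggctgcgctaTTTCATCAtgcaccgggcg
Tars (GRCm38.p6 chr15:11399659-11399684, minus strand): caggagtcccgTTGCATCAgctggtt
The match starts 30 bases before the start of Gars and 15 before that of Tars. Among the genes called lower, 2 of 7 with a listed promoter held a match, as did 0 of 5 called higher and 1 of 16 not called. These letters were not in the windows of the other 25, which says nothing of the factor.

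Genes that work with the synthetases were counted in the same contrast, from lists chosen with earlier results of these data known, and each share called is to be read beside the 41.5% of all genes called (20.4% higher, 21.1% lower). Of 36 genes of GCN2, ATF4 and reported targets outside the synthetases, 2 were higher, 17 lower and 17 not called by edgeR (52.8% called), with a median log2 fold change of -0.21. Atf4 itself was not called, with 1544, 1545 and 1459 CPM in the number 4 libraries of mimic, inhibitor and control, against 1413 to 1561 CPM, and 0.04 ± 0.05 (SE, edgeR adjusted p = 0.51). Asns, asparagine synthetase, was not called either (0.00 ± 0.07, SE, edgeR adjusted p = 0.97). Atf3, a stress-induced transcription factor, fell to 30.37, 33.45 and 29.71 CPM in number 4, against 59.03 to 80.51 CPM, with -1.20 ± 0.08 (SE, edgeR adjusted p = 1.83e-06). Sesn2, a leucine sensor (-0.76), and Chac1, a glutathione-degrading enzyme (-0.81), fell too, while Ddit4, an inhibitor of mTORC1, rose (0.68). Eif2ak4, which encodes GCN2, was the other gene that rose (0.52).

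RNA polymerase III, which transcribes tRNA genes, and its factors had 4 of 25 higher, 14 lower and 7 not called (72% called), with a median of -0.23. The subunit gene Crcp fell to 51.9, 49.75 and 52.61 CPM in number 4, against 95.6 to 112.1 CPM, with -1.01 ± 0.05 (SE, edgeR adjusted p = 5.25e-07). The subunit gene Polr3e (-0.57) and Tbp, the TATA-binding protein of TFIIIB (-0.56), fell as well. Of 31 genes of tRNA end maturation, splicing and export, 2 were higher and 9 lower, with a median of -0.10. The share called, 35.5%, was below that over all genes. The called genes included the RNase P subunit genes Rpp14 (-0.54), Pop4 (-0.36) and Rpp25 (0.52) and Xpo5, an exportin (-0.39).

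The lists that follow hold 3 to 11 genes, and in all but the first the share called, 12.5% to 33.3%, was below the 41.5% over all genes. Of the partners of mitochondrial charging, 3 of 4 fell and 0 rose. These were the subunits of the amidotransferase that makes mitochondrial Gln-tRNA, Gatc (-0.41), Gatb (-0.29) and Qrsl1 (-0.19), while Mtfmt, the Met-tRNA formyltransferase, was not called (-0.06). Mitochondrial translation factors had 2 of 10 higher, the release factor Mtrf1l (0.36) and the recycling factor Gfm2 (0.18), and 1 lower, the initiation factor Mtif3 (-0.32). In the cytosol, 3 of 11 elongation and initiator tRNA genes rose and 0 fell, namely Eif5b (0.52), Eif2s3x (0.22) and Eif2s2 (0.24). Eef1e1 rose (0.33) while the other scaffolds Aimp1 (-0.03) and Aimp2 (-0.08) were not called. In proofreading, 1 of 8 genes was called, Ankrd16, a cofactor of the alanyl enzyme (-0.41). In the 3 treatment contrasts, edgeR called 0 genes of each of these 8 lists.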

How the data were processed

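The authors deposited whole-number read counts per gene and TPM values for the same 15767 genes in 12 libraries. The submitters' processing notes name the build GRCm39 and the tools edgeR, featureCounts, StringTie, STAR and fastp. Versions, roles and the use of strand were not given in the sources used here. Total counts ran from 60695388 to 74200532. The counts of 38 synthetase genes were tested within a fit of all genes with edgeR 4.0.16 in R 4.3.3 (TMM scaling, filterByExpr, robust quasi-likelihood F-test, two-sided, Benjamini-Hochberg over 13014 genes, called under 0.05). Treatment contrasts used group alone, and number contrasts used treatment and number. CPM values use the TMM-scaled library size, other than CPM per kb of coding sequence, which uses the unscaled total count. DESeq2 1.42.0 and limma 3.58.1 on log2(TPM + 1) or log2(TPM + 0.1) were alternatives. The script was tested on simulated counts.

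The members, classes and lists were chosen with earlier results of these data known. Named with per-library values were up to 4 called members per class and direction of greatest log2 fold change in each number contrast, the 2 members of smallest p in each treatment contrast and, by rule, up to 4 genes of smallest p per list, with Atf4 and Asns. Farsb, Gars, Eif2ak4, Sars and the other genes with a seed match were added after their values were seen. GENCODE M21 and RefSeq sequences (GRCm38) served for coding length, GC content, UTR and promoter sequence and overlaps, matched by gene identifier for all 38 genes, and 28 had a RefSeq promoter. Some items that these rules take, among them 1 synthetase gene, are left out of the text and figures and not reported here. Levels are descriptions and were not tested. Within groups, pairs of libraries had a chi-square per degree of freedom of 20.7 to 241, so 0 were taken as copies.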

Additional observations from a re-analysis of the deposited data

Results flagged for a closer look

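Each of the 38 genes was searched in each treatment group of 4 libraries for a library far from the other 3, by Dixon's ratio of the gap to the range at its 95% critical value, which chance exceeds in about 1 in 20 groups. Of 114 combinations, 4 were found, 1 of them in a number 4 library.

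Iars in control 4 measured 382.3 CPM, against 489.9 to 498.2 CPM in the other controls, a gap of 0.928 of the range, and mimic 4 and inhibitor 4 were also the lowest libraries of their groups for this gene. Hars2 in inhibitor 3 measured 35.61 CPM, against 31.81 to 32.29 CPM in the other inhibitor libraries. Iars2 in inhibitor 1 measured 62.63 CPM, against 74.61 to 76.7 CPM in the others. Wars2 in mimic 3 measured 9.225 CPM, against 6.978 to 7.291 CPM in the others, and the sign of its difference between mimic and control rested on that library.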

How the results depend on the processing

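In the 3 treatment contrasts, number 2 against number 1 and the interaction, 0 synthetase genes were called under each alternative that could be run. Fits of the interaction without a number 4 library were not run, since the terms could not be estimated. In number 4 against numbers 1 to 3 the count of 18 was 16 to 21 under the other scalings, filters, tools and the 2-level term, and 5 to 21 when 1 library was left out. It was 5 without control 4, 10 without mimic 4 and 10 without inhibitor 4. Over all genes, the 5399 calls became 5085 to 5883 under the other scalings, filters, tools and the 2-level term. They became 3690 to 6589 when 1 library was left out. The count called higher, 5, was 3 with no low-count filter and 2 with limma on log2(TPM + 1), on log2(TPM + 0.1) or on genes with a mean TPM of at least 1, and 1 to 5 with 1 library left out. The count called lower, 13, ran from 4 to 16 with 1 library left out. The cytosolic median of -0.179 was -0.0764 with the dual genes counted as cytosolic and -0.202 to -0.12 with 1 library left out. The mitochondrial median of -0.0947 was -0.155 to -0.0769 with 1 library left out. Number 3 against numbers 1 and 2 called 2 synthetase genes without control 2, beside 569 of 13124 genes, and 0 to 2 synthetase genes over the libraries left out. The cause of these changes was not tested, and fits that leave one out also hold fewer libraries. The ratio of cytosolic to mitochondrial sums, 12.4 in TPM, was 11.3 per coding length, 20.2 with the dual genes added and 12.3 to 12.5 with 1 library left out. Mimic against control reversed for Wars2 without mimic 3 and for Yars without control 2, with -0.0036 to 0.1516 for Wars2 and -0.144 to 0.0098 for Yars over the libraries left out.

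Same-numbered libraries were correlated over genes in their deviations from the mean of their treatment group. The correlations were 0.728 to 0.801 for number 4, 0.305 to 0.525 for number 3, 0.00901 to 0.372 for number 1 and -0.143 to 0.374 for number 2. Each group mean includes the library numbered 4, so a shift shared by number 4 also enters the deviations of the other numbers. Libraries of different numbers were not correlated, so the values for numbers 1 to 3 have no baseline and cannot show pairing. The numbers as a whole were not taken to pair the libraries. With the replicate block, 0 synthetase genes were called in each treatment contrast.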
